A study of Homo sapiens with 4 samples.

Results

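The mevalonate pathway builds the isoprenoid units from which animal cells make cholesterol, the prenyl anchors of small GTPases, dolichol and the side chain of ubiquinone. Its early part condenses acetyl-CoA units, phosphorylates and decarboxylates mevalonate to isopentenyl diphosphate, and joins that unit into farnesyl diphosphate, which squalene synthase then commits to sterols. Transcription of most of these genes is known to be driven by the sterol-regulated factor SREBP2, working with the promoter factors NF-Y and Sp1. The 9 genes examined were chosen by name as enzymes of this part of the pathway, with earlier results of these data known. In pathway order they are ACAT2, HMGCS1, MVK, PMVK, MVD, IDI1, FDPS, GGPS1 and FDFT1. They account for 16 of 44578 transcripts and 9 of 23217 gene symbols in the deposited table.

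Cells of LV-M100, 1 clonal subline of the human breast cancer line MDA-MB-231, received siRNAs by lipid transfection and were harvested 48 h later for sequencing of RNA depleted of ribosomal RNA. Both siControl libraries carried an oligonucleotide without a stated target (NC1 in replicate 1, BLOCK-iT Fluorescent Oligo in replicate 2), and both siSNRNP40 libraries carried an siRNA against SNRNP40, a protein of the U5 splicing particle (siSNRNP40 #1 and siSNRNP40 #2). The comparison asks which transcripts depend on SNRNP40. The deposited table gives 1 FPKM value for each transcript and condition, the fragments assigned to a transcript scaled to its length and to the number of mapped fragments, with the 2 libraries of a condition pooled. There is therefore no value per library, no replicate error and no test for any difference given here, and depth is unknown because no read counts are given.

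Over all transcripts FPKM summed to 516056 in siControl and 517152 in siSNRNP40. SNRNP40 itself had an FPKM of 40.4 in siControl and 6.12 in siSNRNP40, a level 84.9% lower. All 5 genes taken as markers of MDA-MB-231 cells were abundant, from 115.9 (CD44) to 750.1 (VIM) in siControl and from 114.8 (AXL) to 733.0 (VIM) in siSNRNP40, whereas the luminal genes ESR1, PGR and CDH1 stayed below 0.1 and the leukocyte gene PTPRC was listed at 0. The other luminal genes, EPCAM (10.6 and 10.0) and GATA3 (1.32 and 1.18), were present. FPKM is a relative measure in bulk RNA, so a change in RNA per cell or in the number of cells of one kind cannot be told apart from a change of the transcript itself.

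In siSNRNP40 cells 8 of the 9 genes had a lower FPKM, summed over their transcripts, than in siControl cells. IDI1 was lowest relative to siControl, at 46.3% of its control level, followed by MVK, FDFT1 and HMGCS1, and only PMVK was higher. Log2 fold changes are given as siSNRNP40 over siControl. Their median over the 9 genes was -0.36, against 0.0034 over the 12334 genes whose mean summed FPKM was at least 1 and which were above 0 in both conditions, here called the genes compared. All 9 genes met this filter. The summed FPKM of the 9 genes together was 327.3 in siControl and 237.6 in siSNRNP40 (log2 fold change -0.46).

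**Figure D1:**
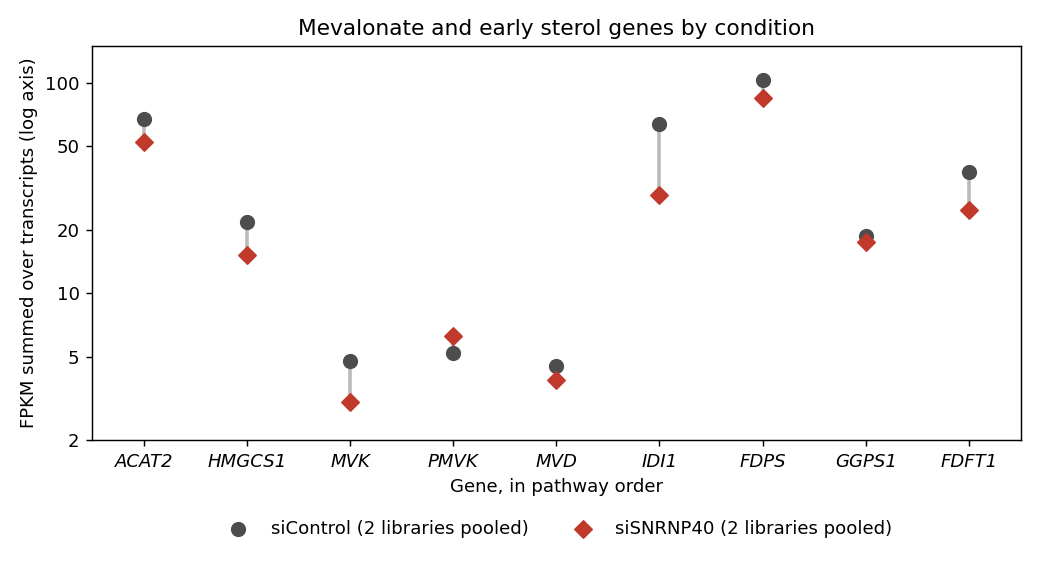
FPKM summed over the transcripts of each gene, on a log axis, with the genes in pathway order. Each point is the pooled value of 2 libraries and has no error bar. The siSNRNP40 diamond lies below the siControl circle for 8 of 9 genes, with the widest gap at IDI1 (63.6 and 29.4) and the opposite order at PMVK (5.19 and 6.24).

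A limit of 0.5 on the log2 scale was used to count genes, and it is a limit of size, not a test. Below -0.5 were 4 of the 9 genes (IDI1, MVK, FDFT1 and HMGCS1), against 5.06% of all genes compared. Above 0.5 were 0 of 9, against 5.24%. Below 0 were 8 of 9, against 49.5%, and below -1 was 1 of 9, IDI1, against 0.657%. The quartiles of all genes compared were -0.17 and 0.17, and of the 9 genes only GGPS1 lay between them. Because scatter is wider at low FPKM, the same counts were also read by level. Of MVK and MVD, with a mean FPKM from 1 to 5, 1 was below -0.5, against 8.79% of genes in that band. Of GGPS1, HMGCS1 and PMVK, from 5 to 20, 1 was below, against 3.97%. Of ACAT2, FDFT1, FDPS and IDI1, at 20 or more, 2 were below, against 2.79%.

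**Figure D2:**
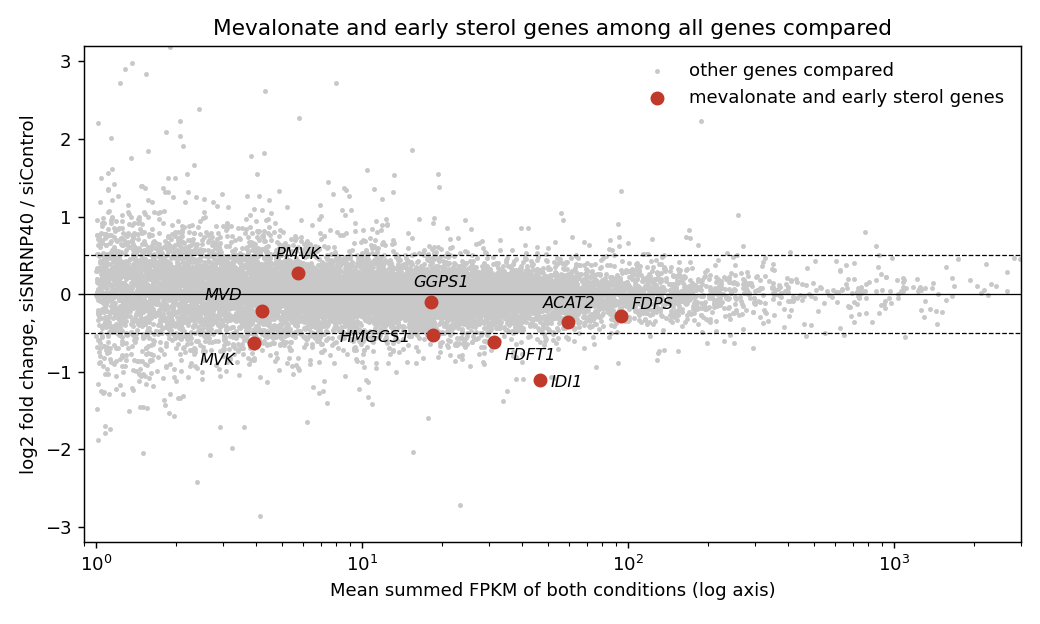
Log2 fold change, siSNRNP40 over siControl, against the mean summed FPKM of both conditions (log axis) for the 12334 genes compared, of which 12 lie outside the plotted range. Red points are the mevalonate and early sterol genes, dashed lines mark -0.5 and 0.5, and IDI1 at -1.11 stands apart from most genes of its level.

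The pathway begins with ACAT2, the cytosolic thiolase that joins acetyl-CoA units to acetoacetyl-CoA. Its single listed transcript had an FPKM of 67.2 in siControl and 52.2 in siSNRNP40 (log2 fold change -0.36). A fold change as low or lower was found for 9.32% of genes compared. ACAT2 (ENSG00000120437) lies on the plus strand of chromosome 6 of GRCh37 from 160183077 to 160200144 and has 9 exons. Its last part runs into TCP1, a chaperonin gene on the opposite strand, with which 454 bases or 29.9% of its canonical transcript are shared, and 98 bases are shared with SOD2, also on the opposite strand. TCP1 stood at 154.6 and 143.1 (-0.11). The library kit keeps the strand of the RNA, but whether the counting used it is not given in the sources used here, so reads in shared stretches could come from either gene.

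HMGCS1, the cytosolic synthase that makes HMG-CoA, had a summed FPKM of 21.8 in siControl and 15.2 in siSNRNP40 (-0.52). It lies on the minus strand of chromosome 5 from 43287572 to 43313614, with 11 exons. An antisense gene of the annotation that the table does not list, ENSG00000261604, shares 46.7% of its canonical transcript. HMGCS1 sits close to the limit of 0.5, and with a pseudocount of 1 its log2 fold change was -0.497.

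The 2 kinases and the decarboxylase that turn mevalonate into isopentenyl diphosphate were the lowest expressed of the 9 genes, and their fold changes lay on both sides of 0. MVK, mevalonate kinase, had a summed FPKM of 4.75 in siControl and 3.06 in siSNRNP40 (-0.64), and 2.62% of genes compared were as low or lower. The authors' software marked both MVK transcripts as having too few aligned fragments for its own test, which was not the case for any other transcript of the 9 genes. PMVK, phosphomevalonate kinase, was the exception in direction, with 5.19 in siControl and 6.24 in siSNRNP40 (0.27). MVD, the diphosphomevalonate decarboxylase, had 4.53 and 3.89 (-0.22). MVK lies on chromosome 12 from 110011060 to 110035930 with 11 exons, PMVK on chromosome 1 from 154897216 to 154909195 with 5, and MVD on chromosome 16 from 88718343 to 88729569 with 10. None of the 3 canonical transcripts shares exon bases with another annotated gene, but other annotated exons of MVK share 158 bases with the canonical transcript of its neighbour MMAB on the opposite strand.

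IDI1, the isomerase that converts isopentenyl diphosphate to the reactive dimethylallyl form, showed the largest difference. Its single listed transcript had an FPKM of 63.6 in siControl and 29.4 in siSNRNP40, a difference of -34.1 FPKM and a log2 fold change of -1.11. Only 55 of the 12334 genes compared, or 0.446%, were as low or lower, IDI1 included. Without its value the median of the other 8 genes was -0.32. IDI1 (ENSG00000067064) occupies 1085092 to 1095059 on the minus strand of chromosome 10 and has 5 exons. The table places it in 1 locus with IDI2, a paralog known from skeletal muscle, and with the antisense RNA IDI2-AS1, which shares 173 bases or 6.32% of the IDI1 transcript. These neighbours stood the other way, IDI2 at 2.05 in siControl and 3.42 in siSNRNP40 (0.74) and IDI2-AS1 at 0.760 and 1.28 (0.75). Both are expressed at a low level, where ratios scatter more. GTPBP4, 1138 bases from this listed locus, had 90.6 and 111.8 (0.30).

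FDPS, farnesyl diphosphate synthase and the target of bisphosphonate drugs, was the most abundant of the 9 genes in both conditions. Its 5 transcripts summed to an FPKM of 103.5 in siControl and 85.2 in siSNRNP40 (-0.28). FDPS lies on the plus strand of chromosome 1 from 155278539 to 155290457 with 11 exons, and RUSC1-AS1 on the other strand shares 41.4% of its canonical transcript. RUSC1-AS1 itself had 7.86 and 6.70 (-0.23). The annotation also names 8 pseudogenes after FDPS and 3 after IDI1, of which the table lists 0. Reads that such copies share with their parent gene cannot be separated here.

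Downstream of FDPS the pathway divides. GGPS1, which extends farnesyl to geranylgeranyl diphosphate for protein prenylation, had the log2 fold change nearest 0 of the 9 genes, with a summed FPKM of 18.8 in siControl and 17.6 in siSNRNP40 (-0.097). FDFT1, squalene synthase and the first enzyme that serves sterols alone, had 37.9 and 24.8 (-0.61), and 2.90% of genes compared were as low or lower. FDFT1 was thus 34.6% lower and GGPS1 6.48% lower, a difference between single genes for which no error can be given. GGPS1 lies on chromosome 1 from 235490665 to 235507847 with 4 exons and shares 26.1% of its canonical transcript with another annotated gene on the same strand. FDFT1 lies on chromosome 8 from 11653082 to 11696904 with 8 exons and shares none.

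By level, the order in siControl was FDPS, ACAT2, IDI1, FDFT1, HMGCS1, GGPS1, PMVK, MVK and MVD. In siSNRNP40 the first 4 places were held by the same genes in the same order, while GGPS1 came before HMGCS1, and MVD before MVK. With no spread between libraries, it cannot be said which neighbours in this order differ. Exon number ran from 4 in GGPS1 to 11 in HMGCS1, MVK and FDPS. The gene with the largest difference, IDI1, and the gene with the opposite sign, PMVK, both have 5 exons.

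For genes with several transcripts the table divides the fragments among them by a statistical model, and its transcript identifiers carry no exon structure, so transcripts are numbered here in table order. Of the 16 transcripts 15 had a mean FPKM of at least 1, the second MVK transcript being listed below 0.001 in both conditions. Lower by more than 1 on the log2 scale were 2 of the 15, IDI1 and transcript 3 of FDPS, against 5.01% of all 16650 transcripts compared. Higher by more than 1 were 0 of 15, against 5.48%.

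FDPS transcript 3 had an FPKM of 16.02 in siControl and 2.56 in siSNRNP40 (-2.64), and its share of the FDPS sum was 15.5% and 3.01%. Transcript 2 differed in the opposite direction, with 23.2 and 35.1 (0.60) and shares of 22.4% and 41.2%. Transcript 1 had 36.9 and 25.1 (-0.56), transcript 4 had 1.34 and 1.33 (-0.015), and transcript 5 had 26.1 and 21.1 (-0.30). The opposite values of transcripts 2 and 3 largely offset each other in the gene sum. Summed without transcript 3, FDPS had a log2 fold change of -0.082, and summed without transcript 2 it had -0.68. In HMGCS1 the difference lay mainly in transcript 1, with 12.6 and 7.04 (-0.84), whereas transcript 2 had 9.29 and 8.14 (-0.19). The share of transcript 1 was 57.5% in siControl and 46.4% in siSNRNP40. The shares of both GGPS1 transcripts differed by 1.44 percentage points.

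**Figure D3:**
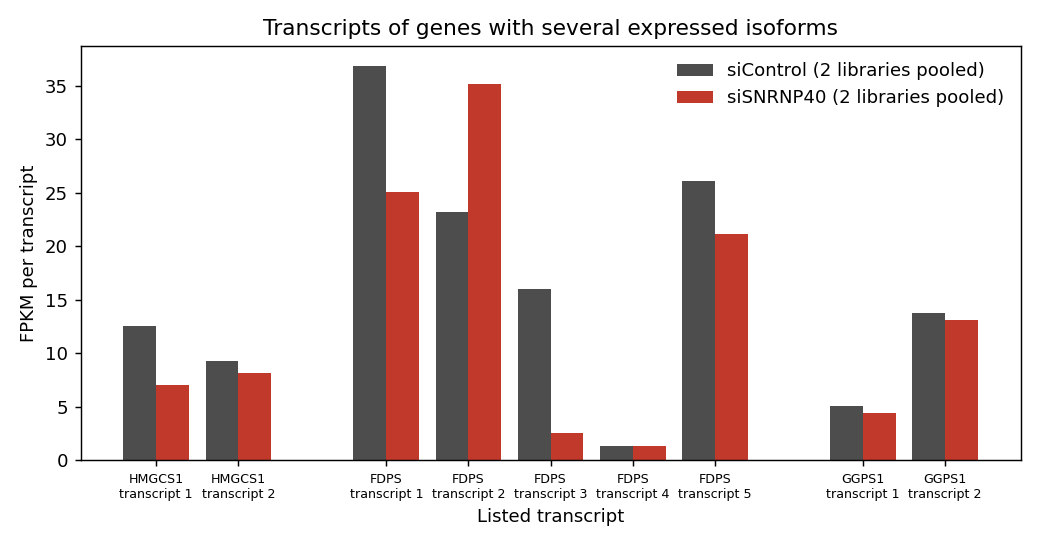
FPKM of each listed transcript of HMGCS1, FDPS and GGPS1, the genes with more than 1 transcript at a mean FPKM of at least 1. Bars are pooled values of 2 libraries without error. FDPS transcript 3 is lower in siSNRNP40 (16.02 and 2.56) and FDPS transcript 2 higher (23.2 and 35.1).

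The promoters of these genes are shown because most of the 9 genes were lower together. RefSeq windows of the 250 bases before the transcription start (GRCh38.p14) were found for 7 of the 9 genes, ACAT2 and FDFT1 having no entry. Printed below are windows of 4 genes that were lower and of PMVK, which was higher. Each reads on the strand of its gene, with every match to the NF-Y motif CCAAT, on either strand, in capitals. Not printed are the windows of the lower genes MVD, with 3 matches, and GGPS1. Windows 1 and 3 of GGPS1 hold none and window 2 holds 1. IDI1 has 3 windows and HMGCS1 has 2, and the one printed for each was chosen because it holds the motif. Window 1 of IDI1, not printed, also holds it, with 3 matches against 2 in window 2. Window 3 of IDI1 and window 1 of HMGCS1 hold none. Because windows were chosen in this way, those printed do not show whether motif and direction go together, which was not tested.
IDI1 (window 2, chr10:1049120-1049369, minus strand): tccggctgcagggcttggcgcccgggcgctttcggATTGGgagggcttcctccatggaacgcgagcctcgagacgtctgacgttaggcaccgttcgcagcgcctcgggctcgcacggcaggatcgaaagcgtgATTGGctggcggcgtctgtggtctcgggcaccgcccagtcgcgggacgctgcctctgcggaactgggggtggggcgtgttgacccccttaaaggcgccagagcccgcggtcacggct
MVK (chr12:109573544-109573793, plus strand): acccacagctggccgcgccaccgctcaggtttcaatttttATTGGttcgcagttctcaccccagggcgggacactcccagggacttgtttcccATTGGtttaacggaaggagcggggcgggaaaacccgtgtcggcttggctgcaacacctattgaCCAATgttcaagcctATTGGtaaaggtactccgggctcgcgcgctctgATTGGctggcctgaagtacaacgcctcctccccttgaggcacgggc
HMGCS1 (window 2, chr5:43313413-43313662, minus strand): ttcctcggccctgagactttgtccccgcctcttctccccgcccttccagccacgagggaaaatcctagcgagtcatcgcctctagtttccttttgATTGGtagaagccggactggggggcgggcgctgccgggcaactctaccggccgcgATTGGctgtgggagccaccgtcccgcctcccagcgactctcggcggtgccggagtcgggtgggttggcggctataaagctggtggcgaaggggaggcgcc
FDPS (chr1:155308616-155308865, plus strand): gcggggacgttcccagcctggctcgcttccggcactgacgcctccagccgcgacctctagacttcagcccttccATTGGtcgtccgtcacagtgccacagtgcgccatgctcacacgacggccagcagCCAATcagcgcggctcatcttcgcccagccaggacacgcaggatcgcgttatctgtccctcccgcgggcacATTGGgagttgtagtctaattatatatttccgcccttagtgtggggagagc
PMVK (chr1:154936720-154936969, minus strand): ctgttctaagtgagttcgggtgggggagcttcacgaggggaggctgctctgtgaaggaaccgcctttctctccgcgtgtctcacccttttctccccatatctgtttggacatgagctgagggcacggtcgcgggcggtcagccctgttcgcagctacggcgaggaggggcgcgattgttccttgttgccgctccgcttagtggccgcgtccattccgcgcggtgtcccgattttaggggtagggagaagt

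The motif CCAAT was present on either strand in 7 of the 12 windows of these genes, against 32.0% of all 35116 RefSeq windows. The 5 windows without it were that of PMVK and also those of lower genes, namely window 1 of HMGCS1, window 3 of IDI1 and windows 1 and 3 of GGPS1. Counted by gene, 6 of 7 had it in at least 1 window, against 36.997% of all 27305 genes with a window. It occurred 5 times before MVK, 3 times before MVD, FDPS and in window 1 of IDI1, 2 times in window 2 of both HMGCS1 and IDI1, and once in 1 of 3 windows of GGPS1. At least 3 matches were found in 2.93% of all windows and at least 2 in 9.53%. In window 1 of IDI1 the first 2 matches overlap on opposite strands and may count as 1 site. The GC box GGGCGG, a motif of Sp1, was present in 11 of the 12 windows, all but window 1 of GGPS1, against 42.6% of all windows. By gene, 7 of 7 had it in at least 1 window, against 46.2% of all genes with a window. Shares over all windows and genes were not limited to the genes compared. The 12 windows belong to 7 genes and some overlap, so they are not independent. The sterol element core CACNCCAC, with N any base, was found in window 1 of IDI1 alone among these windows, against 4.87% of all, and its strict form CACCCCAC in none of them, against 2.43%. These are matches of letters in short windows, and binding was not measured.

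**Figure D4:**
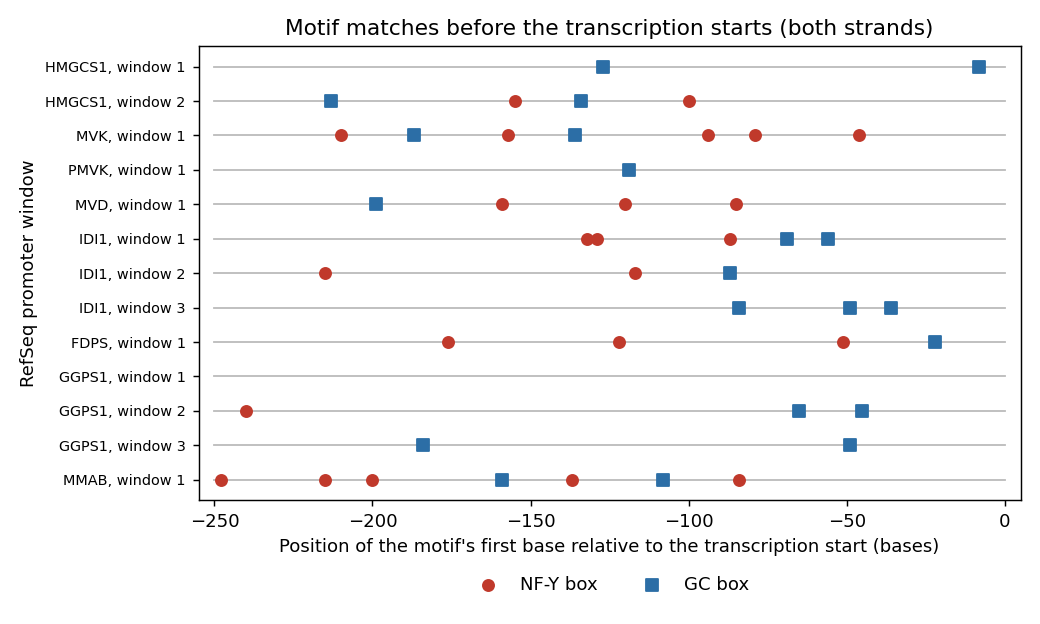
Positions of matches to the NF-Y motif (red circles) and the GC box (blue squares), on either strand, in the 250 bases before each RefSeq transcription start, in bases. Each row is 1 window and the last row is MMAB, the neighbour of MVK. MVK has 5 NF-Y matches. PMVK has none, and neither have window 1 of HMGCS1, window 3 of IDI1 and windows 1 and 3 of GGPS1.

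MVK shares its promoter with MMAB, which makes a cobalamin cofactor and is transcribed away from it. In RefSeq 289 bases separate the starts of the 2 genes, and their windows overlap by 211 bases. MMAB had a summed FPKM of 6.33 in siControl and 5.24 in siSNRNP40 (-0.27), so that both genes of the pair were lower, MVK (-0.64) by more.

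Among the remaining genes of the pathway, 12 late enzymes from squalene to cholesterol gave a similar picture. All 12 were among the genes compared, 11 were below 0, 4 were below -0.5 and 0 were above 0.5, with a median of -0.34. With the most expressed transcript of each gene 9 were below 0 and 3 below -0.5, and with upper-quartile scaling 10 and 2. EBP, an isomerase counted among the 11 by summed FPKM, was level (75.1 in both conditions, -0.00042). The lowest were MSMO1, the C4-methylsterol oxidase (36.9 in siControl and 20.2 in siSNRNP40, -0.87), and HSD17B7, a sterol ketoreductase (10.5 and 6.37, -0.73). LBR, a sterol reductase, lay just past the limit (61.2 and 42.9, -0.51) and dropped out of the count with upper-quartile scaling. TM7SF2, whose reductase step LBR also serves, was the only late gene above 0 by summed FPKM (1.89 and 2.34, 0.31).

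Genes that sense sterols or bring them into the cell were also mostly lower, within a narrower range. Of 9 compared, 8 were below 0 and 0 passed 0.5 in either direction, with a median of -0.38. With the most expressed transcript of each gene 7 were below 0 and 1 was below -0.5. INSIG1, which holds SREBP in the endoplasmic reticulum when sterols are plentiful and is itself an SREBP target, was lowest (61.0 and 43.5, -0.49). SREBF2, the gene of SREBP2, had 3.997 and 3.05 (-0.39), and SCAP, its escort protein, was highest (6.01 and 6.41, 0.094).

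Genes that use isoprenoids did not share this direction. Of 19 compared, 10 were below 0 and 9 above, with a median of -0.0086 that turned to 0.022 with upper-quartile scaling and to 0.032 with the most expressed transcript of each gene. FNTB, the beta subunit of farnesyltransferase, was below -0.5 (1.99 and 1.07, -0.90), while RCE1, the protease that trims prenylated proteins (2.20 and 3.65, 0.73), and DOLK, dolichol kinase (0.53), were above 0.5. Of 7 genes that supply acetyl-CoA or are paralogs of the early enzymes, 5 were compared, with a median of -0.11. Of these, 4 were below 0, 1 was below -0.5 (ACSS2) and 1 was above 0.5 (IDI2, 0.74). ACSS2, which makes cytosolic acetyl-CoA from acetate, had 9.72 and 6.65 (-0.55), whereas ACAT1, the mitochondrial counterpart of ACAT2, had 119.5 and 110.8 (-0.11).

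**Figure D5:**
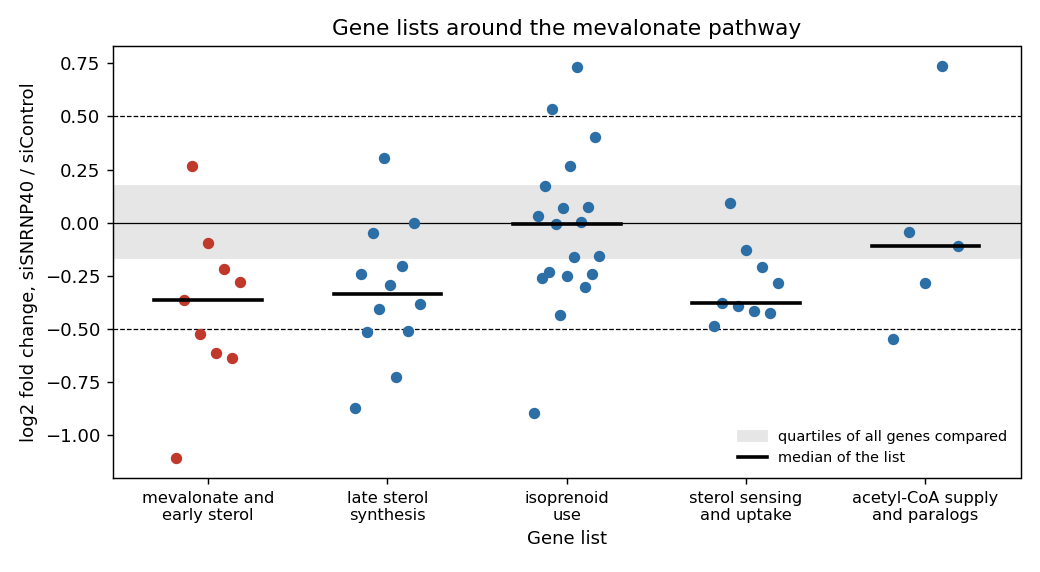
Log2 fold change, siSNRNP40 over siControl, of each gene compared in 5 lists. Black bars are list medians, the grey band runs between the quartiles of all genes compared (-0.17 to 0.17) and dashed lines mark -0.5 and 0.5. The medians of the early, late and sensing lists lie below the band (-0.36, -0.34 and -0.38), and that of isoprenoid use lies inside it (-0.0086).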

How the data were processed

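RNA-seq of 4 libraries was examined (siControl and siSNRNP40, 2 each, grouped by their titles). After trimming by cutadapt 1.2.1 and alignment to hg19 by TopHat 2.0.8, the authors used Cufflinks, cuffmerge and cuffdiff 2.0.2 to make the deposited FPKM values, 1 for each transcript and condition. The authors' own comparison (fold changes, test statistics, p and q) is also deposited and was not used. Depth is unknown.

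FPKM was summed over all transcripts of a symbol, and log2 ratios were taken without a pseudocount among genes with a mean of at least 1. For transcripts, 41 that the software marked as failed were left out of the counts. The limits were 0.5 for genes and 1 for transcripts. The table has no value per library, so no test was run. Members and lists were chosen with earlier results of these data known. Named from the other lists were genes past 0.5, otherwise the highest and lowest, with a few added after their values were seen (SREBF2, ACAT1, EBP). Some genes of these lists are counted but not reported here by name. Neighbours lay within 5 kb. Gene positions came from GENCODE 44 on GRCh37, which shares hg19 coordinates, and promoters from RefSeq (GRCh38.p14). Summing and counting were tested on simulated data. Python 3.11.15, pandas 2.3.3 and numpy 2.4.6 were used.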

Additional observations from a re-analysis of the deposited data

How the results depend on the processing

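No paired analysis was possible because each condition has a single pooled column, which belongs to no replicate number, and for the same reason leaving out a replicate was not run. Values without a test were counted as moved at a log2 change of 0.1 or a count changed by more than 1.5 times. Under 5 alternatives (a pseudocount of 1, the most expressed transcript of each gene, and centring on the median, upper-quartile scaling or scaling on the total, the last chosen after the data were seen), 42 of 45 values of the 9 genes stayed within 0.1, 3 moved and 0 changed sign. Centring and scaling subtract 1 constant from every log2 value, of size 0.0034 (median), 0.031 (upper quartile) or 0.0029 (total). These settings could therefore move no value by 0.1. For the 5 genes with 1 listed transcript, the most expressed transcript is the gene sum itself, so the count of 42 says little about robustness. The values that moved were MVK with a pseudocount of 1 (-0.50), and HMGCS1 (-0.84) and FDPS (-0.56) with the most expressed transcript. The last setting also took the median of the 9 genes from -0.36 to -0.56. Without 1 gene at a time the median lay between -0.44 and -0.32. The 4 genes past 0.5 became 1 at a limit of 1, and otherwise 3 to 5. HMGCS1 dropped out with a pseudocount of 1 and with upper-quartile scaling, which shifts all log2 values by 0.031. Over all genes compared, 1270 passed 0.5. This was 706 with a pseudocount of 1, 2026 with the most expressed transcript, 4183 without a filter and 501 when the mean FPKM had to reach 5. The low number of fragments expected at low FPKM limits these ratios most for MVK, MVD and PMVK.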

Other observations

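Other genes within 5 kb of the 9 genes were set beside them. MRPL18, a mitochondrial ribosomal protein gene 756 bases from the locus listed for ACAT2, had a summed FPKM of 58.9 in siControl and 42.4 in siSNRNP40 (log2 fold change -0.48). WTAP, on the other side of that locus, had 40.0 and 45.1 (0.17). ARID4B, 220 bases from the locus of GGPS1, had 29.3 and 29.9 (0.032). CTSB, a lysosomal protease gene next to FDFT1, had 64.3 and 73.3 (0.19), against -0.61 for FDFT1. CYBA, next to MVD, had 66.1 and 64.4 (-0.039). RUSC1, in the same listed locus as FDPS, had 3.84 and 3.60 (-0.091).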
